A study of Rattus norvegicus with 16 samples.

Results

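The mir-23, mir-27 and mir-24 hairpins lie in a pair of genomic clusters, and their reads were followed across 6 rat tissues. The members are the 6 hairpins rno-mir-23a, rno-mir-27a and rno-mir-24-2 (the a cluster) and rno-mir-23b, rno-mir-27b and rno-mir-24-1 (the b cluster). They were chosen by name from the 392 hairpins in the files, and their 11 distinguishable arms are among 712. Small RNA was sequenced on the SOLiD platform from heart, kidney, spleen, liver, testis and whole brain of adult males of the inbred rat strains BN-Lx (a brown Norway line with the polydactyly-luxate syndrome) and SHR (spontaneously hypertensive), untreated as far as the labels say. In the six-tissue set, 1 library was made of each tissue and strain, 12 in all. The 6 tissues of a strain came from 1 rat, so a difference between the strains within a tissue is also a difference between 2 animals and has no replicate. With 4 further livers (replicates 2 and 3 of each strain), 3 livers of each strain could be compared.

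A miRNA hairpin is cut by Drosha and Dicer into a 5' and a 3' arm, of which the one loaded into an Argonaute protein represses mRNAs that pair with its seed, bases 2 to 8. Hairpins that lie close together on a strand are usually cut from 1 primary transcript, so that their levels are set together up to that step and separately from then on. These clusters are known for roles in endothelial cells and vessel growth, in the heart, in blood cell lineages and, for mir-27, in the restraint of fat cell formation.

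The sequences show why the clusters can be told apart in some arms and not in others. The mature arms (RefSeq, GRCr8) are printed 5' to 3' with the seed in capitals.
rno-miR-23a-3p: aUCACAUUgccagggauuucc
rno-miR-23b-3p: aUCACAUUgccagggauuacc
rno-miR-27a-3p: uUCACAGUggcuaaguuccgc
rno-miR-27b-3p: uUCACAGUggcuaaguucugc
rno-miR-24-3p (from both loci): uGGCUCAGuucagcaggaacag
rno-miR-24-2-5p: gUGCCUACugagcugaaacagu
rno-miR-24-1-5p: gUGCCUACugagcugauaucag

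Counted from the 5' end, the 3' arms of mir-23 differ by the substitution U19A (mir-23a first) and those of mir-27 by C19U (mir-27a first). The a and b members of each pair therefore have the same seed. The seed of mir-23 differs from that of mir-27 by U7G. The 3' arm of mir-24 is identical at both loci, and the authors divided its reads evenly between them, so it is given below as 1 arm with the reads of both loci summed. The 5' arms of mir-24 first differ at base 17 and were counted apart. The seeds in capitals follow the RefSeq starts. For mir-24-1-5p a median of 55.9% of reads began 1 base before that start and 34.6% at it. These shares come from 71 reads or fewer in each six-tissue library.

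On RGSC3.4, by the study's list of hairpins, the a cluster lies on the minus strand of chromosome 19, with rno-mir-23a at chr19:25638744-25638818, rno-mir-27a at chr19:25638578-25638663 and rno-mir-24-2 at chr19:25638430-25638537. It spans 389 bases, and in RefSeq (GRCr8) no protein-coding gene spans its hairpins. The b cluster lies on the minus strand of chromosome 17, with rno-mir-23b at chr17:7351688-7351784, rno-mir-27b at chr17:7351449-7351545 and rno-mir-24-1 at chr17:7350971-7351038. It spans 814 bases and lies within Aopep, which encodes an aminopeptidase. Along the transcript both clusters run in the order mir-23, mir-27, mir-24.

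Depth ran from 403453 to 1064894 reads in the six-tissue libraries other than testis, and from 1167607 to 3229461 in the further livers, while the testis libraries had 26880 and 29131. Testis values are thus the least precise. The marker miRNAs of brain (3 of 3), liver (1 of 1), heart (3 of 3), spleen and leukocytes (3 of 3) and testis (3 of 3) were highest in the tissue they mark. Of the 3 kidney markers, mir-200b-3p was highest in kidney, while mir-192-5p and mir-194-1-5p were higher in liver. Levels are in multiples of the outlier-corrected mean (ocm). To obtain it, the 589 known arms are averaged within a library after the 3 with most reads are set aside. A level compares the same arm between libraries. A ratio of different arms is a ratio of reads and not of molecules, because arms are captured with unequal efficiency. In whole tissue, fewer cells of a type and less RNA per cell cannot be told apart.

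The first livers (those of the six-tissue set) and the further livers stood apart in several members, which bears on each result that uses liver. The level of mir-24-3p was 47.2 and 33.9 times the ocm in the first livers of BN-Lx and SHR. It stood at 6.49 and 8.23 in the further BN-Lx livers and at 6.88 and 9.12 in those of SHR, on average 5.28-fold lower. The level of mir-23a-3p moved the other way, from a mean of 13.4 to 21.8 times the ocm (1.62-fold higher), and that of mir-23b-3p from 14.9 to 24.2 (1.62-fold higher). That of mir-27b-3p was 1.69-fold higher and that of mir-24-2-5p 2.42-fold lower in the further livers. The sets overlapped in none of these 5 arms, but did in mir-27a-3p (1.32-fold lower). Over all 269 arms tested in liver, 55% did not overlap between the sets, so such a gap was common. The labels give no reason for the difference, and the set cannot be told apart from the animals.

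The 6 hairpins together took a large part of all miRNA reads. Their share was highest in heart (BN-Lx 21.9%, SHR 22.6%). In kidney it was 15.9% and 16.4%, in brain and spleen between 8.78% and 9.14%, in the first livers 6.77% and 5.71%, in testis 5.32% and 5.38%, and in the further livers between 3.48% and 4.50%. Most of these reads were from mir-24-3p, with 481495 reads in the 12 libraries, mir-23a-3p with 127690 and mir-23b-3p with 122172. The arms mir-24-2-5p (10215 reads), mir-27a-3p (10041.5) and mir-27b-3p (9801.5) followed. The rest were scarce, with 285 reads of mir-24-1-5p, 162 of mir-27b-5p, 43 of mir-23b-5p, 22 of mir-27a-5p and 15 of mir-23a-5p.

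Heart had the highest mean level of all well-read arms but mir-23b-3p. The level of mir-23a-3p in heart was 38.9 (BN-Lx) and 38.7 (SHR) times the ocm. Kidney followed with 19.1 and 17.1, spleen with 18.8 and 16.5, and liver with 13.6 and 13.3. Testis with 6.43 and 6.404 and brain with 5.71 and 6.85 were lowest. The values of heart lay above those of every other tissue, those of kidney and spleen overlapped, and those of testis fell within those of brain.

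Its paralogue mir-23b-3p had another order of tissues. It was highest in kidney, at 25.4 (BN-Lx) and 26.9 (SHR) times the ocm, and in heart, at 25.2 and 25.6, and these tissues overlapped. The first livers had 14.7 and 15.2, and the further livers 20.6 to 27.1. Brain had 11.7 and 9.85, and testis 8.65 and 7.22. Spleen was lowest, with 7.18 and 6.85, though its higher value nearly reached the lower one of testis. Spleen was thus the lowest tissue for mir-23b-3p, while for mir-23a-3p it lay level with kidney, above liver, testis and brain.

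The level of mir-24-3p, which both clusters supply, was 118 and 120 times the ocm in heart and 73.6 and 67.9 in kidney. Spleen (46.7 and 49.6) overlapped both with brain (48.3 and 48.2) and with the first livers (47.2 and 33.9). Testis had 28.3 and 29.1 and was the lowest tissue of the six-tissue set, while the further livers, at 6.49 to 9.12, lay below it. The 5' partner mir-24-2-5p was highest in heart too, at 3.06 and 3.31, against 1.56 and 1.36 in kidney, 1.33 and 1.66 in spleen, 0.860 and 0.886 in liver and 0.478 and 0.509 in brain. In testis it was 0.658 in BN-Lx and 0.112 in SHR, from 21 and 4 reads.

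The mir-27 arms had fewer reads than the mir-23 arms in every library. The level of mir-27a-3p was 1.88 and 3.06 times the ocm in heart, 1.45 and 2.17 in spleen, 1.36 and 1.95 in kidney and 0.844 and 1.33 in liver. It was 0.580 and 0.477 in testis and 0.292 and 0.413 in brain. Heart, spleen and kidney overlapped, and liver, testis and brain lay below them in that order without overlap. In 5 of 6 tissues, all but testis, the SHR library was higher, by 1.41-fold to 1.63-fold.

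The level of mir-27b-3p was 2.39 and 2.16 times the ocm in heart, 1.90 and 1.95 in liver, 1.63 and 1.47 in kidney, 0.613 and 1.34 in spleen and 0.754 and 0.623 in brain. In testis it was 0.235 and 0.674, from 7.5 and 24 reads. Heart, liver and kidney did not overlap in these values. From the reads that tell mir-27b-3p from mir-27a-3p alone they did, with 2.06 and 1.33 in heart, 1.67 and 1.60 in liver and 1.43 and 1.17 in kidney. By all reads, spleen, brain and testis overlapped. The further livers, at 2.70 to 4.23, lay above heart.

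**Figure D1:**
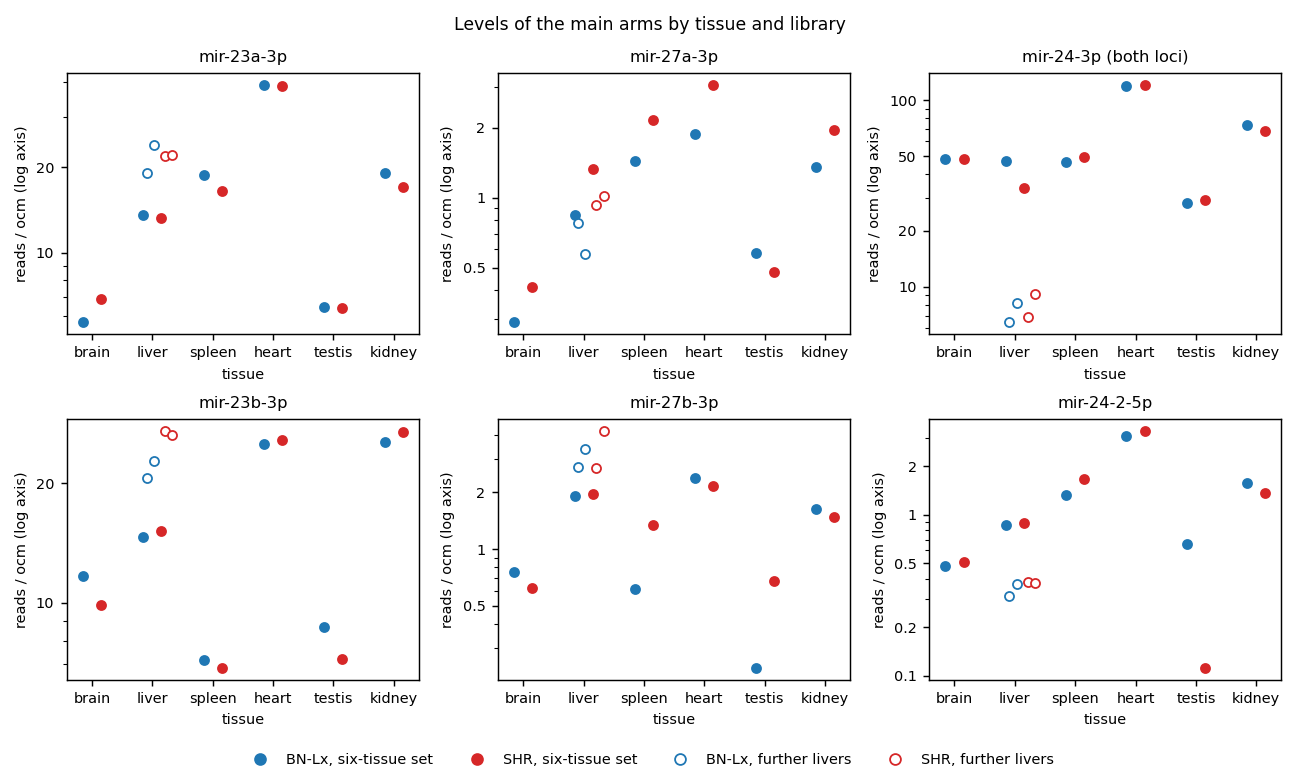
Level of the 6 well-read arms in each tissue (x axis) as reads over the ocm (y axis, log scale), with 1 point per library, filled for the six-tissue set and open for the 4 further livers. Among the filled points heart has the highest mean for all arms but mir-23b-3p, where kidney (25.4 and 26.9) and heart (25.2 and 25.6) overlap, and heart overlaps spleen and kidney in mir-27a-3p. The open points of mir-24-3p lie below the filled livers while those of mir-23a-3p and mir-23b-3p lie above.

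Whether the tissues differed was tested with edgeR over all arms, with the strains as replicates of a tissue. Of the 11 member arms, 8 passed the filter on low counts, and 6 of the 8 differed between tissues at an adjusted p of 0.05. Of all 457 arms tested, 82.5% did, so the share among the members was near that background. The adjusted p was 1.95e-06 for mir-24-3p, 2.40e-06 for mir-23a-3p, 9.07e-06 for mir-23b-3p, 8.38e-05 for mir-27a-3p, 0.000339 for mir-24-2-5p and 0.000988 for mir-27b-3p. The scarce arms mir-27b-5p (adjusted p = 0.0643) and mir-24-1-5p (adjusted p = 0.112) did not pass.

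Against the mean of the other 5 tissues, heart was higher in all 6 of these arms, while 12.3% of all arms were called higher in heart. The log2 difference was 2.31 ± 0.18 (SE) for mir-23a-3p (adjusted p = 2.46e-06), 1.91 ± 0.14 for mir-24-3p (1.69e-06) and 1.62 ± 0.18 for mir-23b-3p (6.72e-05). It was 2.51 ± 0.36 for mir-24-2-5p (0.000360), 1.94 ± 0.28 for mir-27a-3p (0.000377) and 1.75 ± 0.35 for mir-27b-3p (0.00379). The median over all arms in heart was -0.27 with TMM, -0.42 with RLE and -0.79 with total reads, and the 6 arms stood 1.89 to 2.79 above it over the 3 scalings, each called under each of them. For mir-27b-3p the call was lost without the BN-Lx heart library (adjusted p = 0.0989). The 3 vessel wall markers mir-126-3p, mir-143-3p and mir-145-5p were highest in heart too. Their summed level there was 168 to 186 times the ocm, against 17.5 to 120 in the other tissues. Most of the sum was mir-145-5p, at 161 (BN-Lx) and 146 (SHR) in heart. The level of mir-126-3p was 17.8 and 13.8 in heart and 13.3 and 12.8 in kidney. The part of these markers in the result was not tested.

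Testis was lower in the same 6 arms, with a background of 13.8% called lower. The log2 difference ran from -1.90 ± 0.24 for mir-23b-3p (adjusted p = 7.13e-05) to -2.80 ± 0.55 for mir-24-2-5p (0.00274). Over all arms the median difference in testis was -0.85. From that median the 6 arms stood at -1.05 to -1.94 on the log2 scale. With total reads mir-27a-3p lost the call. The 3 vessel wall markers summed to 108 and 120 times the ocm in testis, above every tissue but heart, though mir-126-3p was lowest there. Their part in the result was not tested.

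Brain was lower in the 6 arms as well, with a background of 23% called lower. The a cluster arms were the lowest there, at a log2 difference of -2.43 ± 0.39 for mir-27a-3p (adjusted p = 0.000206), -1.86 ± 0.24 for mir-23a-3p (3.87e-05) and -1.74 ± 0.48 for mir-24-2-5p (0.00774). The b cluster arms stood at -1.33 ± 0.44 for mir-27b-3p (0.0193) and -0.89 ± 0.22 for mir-23b-3p (0.00376), and mir-24-3p at -0.67 ± 0.17 (0.00431). The calls in brain depended on the scaling, since 3 of the 6 remained with RLE factors (mir-23a-3p, mir-24-2-5p and mir-27a-3p) and 2 with total reads (mir-23a-3p and mir-27a-3p), where mir-24-3p turned to a log2 difference of 0.08. The median over all arms was 0.41 with TMM, 0.83 with RLE and 1.17 with total reads, and from that median the 6 arms stood at -2.85 to -1.05 over the 3 scalings. The summed level of the 3 vessel wall markers was lowest in brain too. It was 17.5 to 21.8 times the ocm there, against 54.3 to 186 in the other tissues. Of the 3 markers, mir-143-3p and mir-145-5p were lowest in brain, while mir-126-3p was lowest in testis. Their part in the result was not tested.

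In kidney, 4 arms were higher, with a background of 14.7% called higher. Among them mir-23b-3p differed most, at 1.40 ± 0.18 (adjusted p = 0.000216), and it was the one arm that was still called with RLE factors. The arms mir-27a-3p (1.005 ± 0.30, adjusted p = 0.0347), mir-24-3p (0.75 ± 0.15, 0.00451) and mir-23a-3p (0.73 ± 0.20, 0.0216) were the others. The median over all arms was 0.19 with TMM, -0.10 with RLE and 0.17 with total reads.

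In spleen the mir-23 members went opposite ways. The a cluster arms mir-27a-3p (log2 difference 1.32 ± 0.29, adjusted p = 0.00630) and mir-23a-3p (0.87 ± 0.19, 0.00630) were higher, with a background of 20.1% called higher. The b cluster arm mir-23b-3p was lower, at -0.70 ± 0.22 (0.0290), with a background of 10.5% called lower. The a cluster arm mir-24-2-5p stood at 1.09 ± 0.39 (0.0533), and mir-27b-3p at 0.07 ± 0.39 and mir-24-3p at 0.25 ± 0.16 did not pass. The median over all arms was 0.07 with TMM, -0.25 with RLE and -0.35 with total reads. From that median mir-24-3p stood at 0.17, 0.17 and 0.15, though its log2 difference itself turned to -0.08 with RLE factors and -0.20 with total reads. That of mir-27b-3p turned to -0.25 and -0.35 and lay at the median under all 3 scalings. Of the mir-27b-3p reads in spleen, 216 of 531 (BN-Lx) and 263 of 746 (SHR) were too short to tell it from mir-27a-3p. From the other reads alone its level there was 0.363 and 0.866 times the ocm, against 0.613 and 1.34 by all reads. The signs for mir-23a-3p, mir-27a-3p and mir-23b-3p were the same under all 3 scalings, while mir-23a-3p was called with TMM alone and mir-27a-3p was not called with total reads. The leukocyte markers mir-150-5p, mir-142-3p and mir-223-3p summed to 157 and 166 times the ocm in spleen against 4.11 to 19.5 elsewhere, and the red blood cell markers mir-451-5p and mir-144-5p to 51.9 and 77.1 against 1.26 to 22.2. Their part in the result was not tested.

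In the first livers, mir-27b-3p was the one arm that was higher (1.22 ± 0.36, adjusted p = 0.0309), with a background of 14% called higher. With total reads it was not called (log2 difference 0.40, adjusted p = 0.564). With the further livers of replicate 2 in place of the first, 5 member arms were called in liver, in either direction, and 46% of all arms were. With those of replicate 3 the count was again 5, and 43.7% of all arms were called. In both, mir-23a-3p, mir-23b-3p, mir-27b-3p and mir-27b-5p were higher and mir-24-3p was lower. For mir-27b-5p the mean of the other 5 takes in testis, where that arm had no read. Its level in the further livers, 0.019 to 0.032 times the ocm, was not above heart (0.030 in both strains) or kidney (0.030 and 0.031). The median over all arms was -0.36 with TMM and -1.14 with total reads, where mir-24-3p was called lower (-1.01, adjusted p = 0.00124).

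**Figure D2:**
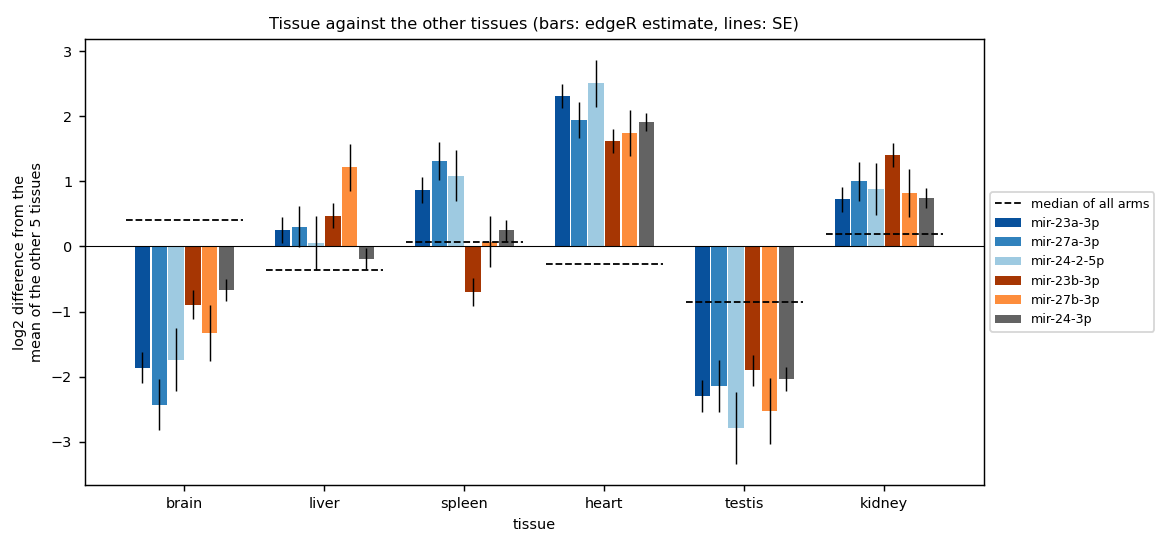
Log2 difference of each tissue from the mean of the other 5 (y axis) for the 6 well-read arms, a cluster in blue, b cluster in orange and the shared mir-24-3p in grey, with bars for the edgeR estimate, lines for its SE and a dashed line for the median over all arms. Heart is above the median for all 6 arms and brain and testis are below it, while in spleen mir-23a-3p (0.87) and mir-23b-3p (-0.70) point in opposite directions.

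The reads of the a and b member of a pair come from the same library, so their ratio does not depend on scaling. Of the mir-23 3' arm reads, mir-23a-3p made up 72.4% in BN-Lx spleen and 70.7% in SHR spleen, and 60.7% and 60.2% in heart. Its share was 48.1% and 46.6% in the first livers, 42.6% and 47.0% in testis, 42.9% and 38.9% in kidney and 32.9% and 41.0% in brain. The 95% intervals, which are exact (Clopper-Pearson) and cover counting error only, were within 1 percentage point of these values except in testis (38.2% to 47.2% in BN-Lx and 42.5% to 51.6% in SHR). Spleen and heart were the tissues with more reads from the a member, and both libraries of each lay above all others. The further livers had 48.1% and 51.4% (BN-Lx) and 44.7% and 45.5% (SHR), close to that of the first livers.

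The ratio of mir-23a-3p to mir-23b-3p was 4.31-fold higher in spleen than in brain (log2 difference 2.11), while the strains differed by a median of 0.18 and at most 0.51 (in brain) on the log2 scale. In the exact permutation test of tissue labels within a strain, p was 0.0111 (the smallest possible is 0.00139). Adjusted over all 161 pairs of paralogous arms it was 0.0789 and did not pass the threshold. Of these pairs, 6.21% passed. With labels permuted without regard to strain the adjusted p was 0.0156, so the call turned on how the permutation was done. Among all pairs the median span between the highest and the lowest tissue was 2.10 on the log2 scale, close to the 2.11 of this pair. The pairs take in scarce arms, whose spans also hold counting error, so the median is only loosely comparable.

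The mir-27 pair showed the same end points with more scatter. Of its 3' arm reads, mir-27a-3p made up 70.3% in BN-Lx spleen (95% interval 68.1% to 72.4%) and 61.9% in SHR spleen (59.7% to 64.1%). In brain it made up 27.9% and 39.8%, in the first livers 30.7% and 40.6%, in heart 44.1% and 58.7%, and in kidney 45.5% and 57.0%. In testis the values were 71.2% (49.8% to 86.2%) and 41.5% (26.3% to 57.9%). Heart and kidney thus lay on both sides of 50% depending on the animal, and spleen lay above all tissues but testis.

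The log2 ratio of mir-27a-3p to mir-27b-3p was 1.95 higher in spleen than in brain, a 3.87-fold difference, and did not pass (exact permutation p = 0.178, adjusted p = 0.267). The strains differed by a median of 0.72 on the log2 scale. The further livers had 22.2% and 14.5% (BN-Lx) and 25.6% and 19.4% (SHR), below both first livers.

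Part of the mir-27 values comes from reads too short to tell the members apart, since a read that ends before base 19 fits both and was divided evenly. Such reads were 13.0% to 31.9% of the mir-27 reads in the six-tissue set and 3.19% to 9.59% in the further livers. For mir-23 they were 1.02% to 2.45% and 0.312% to 0.609%. From the reads that reach base 19 alone, the share of mir-27a-3p was 76.7% and 66.2% in spleen and 24.5% and 37.2% in brain, so the even division pulls the share towards 50%. The test gave the same side of the threshold with these reads.

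**Figure D3:**
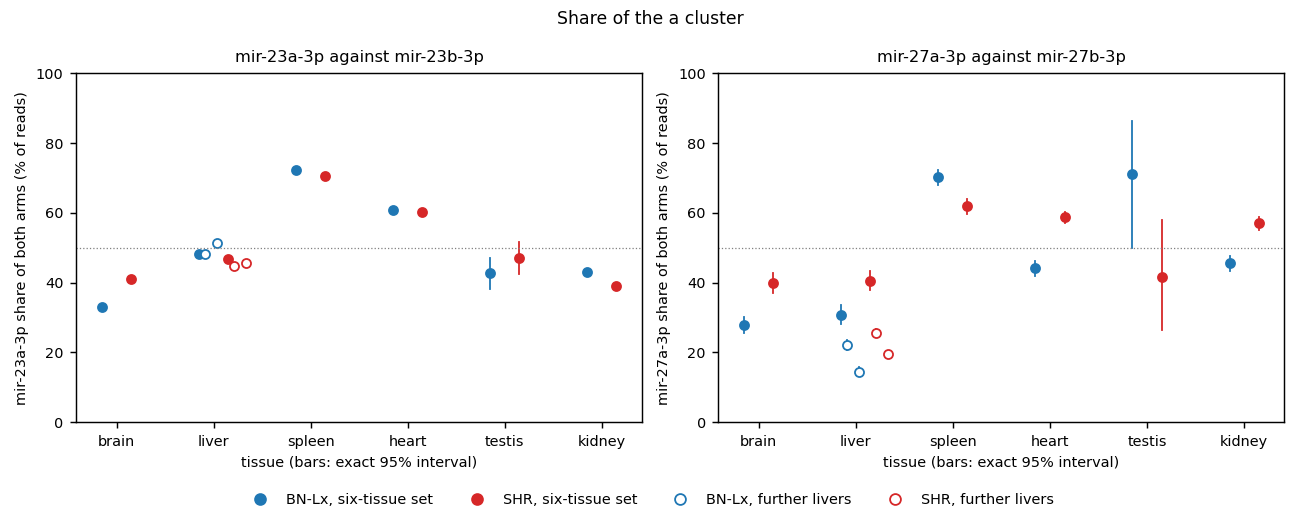
Share of reads (y axis, %) from the a member of the mir-23 (left) and mir-27 (right) 3' arms in each tissue, with points for libraries (filled for the six-tissue set, open for the further livers) and lines for the exact 95% binomial interval. Spleen has the highest mir-23a-3p share (72.4% and 70.7%) and brain the lowest by its mean (32.9% and 41.0%), though it overlaps kidney (42.9% and 38.9%), and the strains lie further apart for mir-27.

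The mir-24 5' arms are the only arms of mir-24 that name their locus. Over the 16 libraries 12543 reads came from mir-24-2-5p and 355 from mir-24-1-5p. The a cluster locus made up between 90.7% (BN-Lx brain) and 98.9% (both spleens) of them in the 10 libraries without testis. In testis mir-24-1-5p had no read, which allows up to 0.0112% of the reads of BN-Lx testis and 0.0103% of those of SHR testis. The ratio did not differ between tissues past the spread of the strains (exact permutation p = 0.433 over the 10 libraries, adjusted p = 0.481, smallest possible p 0.00833), and in brain the strains alone differed by 2.39 on the log2 scale. Arms are captured with unequal efficiency, so the ratio does not measure how much of mir-24-3p each locus supplies.

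Members of one transcript were compared next, by their reads in the same library. In the a cluster, mir-27a-3p had 10.3% or less of the mir-23a-3p and mir-27a-3p reads in all libraries but SHR spleen. Its share was 7.15% and 11.6% in spleen, 6.67% and 10.3% in kidney, 5.84% and 9.12% in the first livers, 4.62% and 7.32% in heart and 4.86% and 5.68% in brain. It was 8.28% and 6.94% in testis. The further livers had 3.92% and 2.33% (BN-Lx) and 4.09% and 4.40% (SHR), below every library of the six-tissue set, and the ratio was on average 2.12-fold lower than in the first livers. The SHR library was higher in all tissues but testis. Between the tissues the log2 ratio spanned 0.86, from brain to spleen, while the strains differed by a median of 0.68 (exact permutation p = 0.186, adjusted p = 0.322).

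In the b cluster, mir-27b-3p had 11.5% and 11.4% of the mir-23b-3p and mir-27b-3p reads in the first livers, 7.86% and 16.3% in spleen, 8.68% and 7.77% in heart, 6.08% and 5.95% in brain and 6.03% and 5.19% in kidney. It had 2.65% and 8.54% in testis. Liver lay above heart, brain and kidney in both strains, and the further livers had 9.07% to 13.8%. The ratio spanned 1.30 on the log2 scale and did not pass (exact permutation p = 0.283, adjusted p = 0.416).

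The ratio of mir-24-2-5p to mir-23a-3p varied little outside testis. In the 10 six-tissue libraries without testis, the log2 ratio lay between -3.98 (BN-Lx liver) and -3.31 (SHR spleen). The testis values were -3.26 and -5.67, the latter from 4 reads of mir-24-2-5p. The test did not pass (exact permutation p = 0.904, adjusted p = 0.918). In the further livers the log2 ratio was between -6.02 and -5.85, on average 3.93-fold lower than in the first livers, against 1.86-fold between the tissue means of spleen and testis.

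For mir-24-3p of both loci against mir-23a-3p and mir-23b-3p together, brain stood highest, with log2 ratios of 1.48 and 1.53. The other tissues had between 0.25 (SHR liver) and 1.09 (SHR spleen and SHR testis). The span from liver to brain was 1.01 on the log2 scale, a 2.01-fold difference, against a median strain difference of 0.14. The exact permutation p was 0.00972 and the adjusted p over 135 pairs of neighbouring hairpins 0.0938, and 2.96% of the pairs passed. In the further livers the log2 ratio was between -2.83 and -2.41, on average 8.50-fold lower than in the first livers. The set of livers therefore moved this ratio by more than any tissue did, and with the further livers of replicate 2 in place of the first the span from liver to brain was 4.22.

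For the scarce mir-24-1-5p against mir-23b-3p the test did not pass (exact permutation p = 0.975, adjusted p = 0.982), and the log2 ratios lay between -9.94 and -7.88 in the 12 libraries but between -11.89 and -10.64 in the further livers. None of the 5 ratios passed the threshold, 1 of which (mir-24-3p over the mir-23 arms) sums both clusters. Their median span was 0.89 on the log2 scale, against 2.55 over all 135 pairs. Those pairs take in scarce arms, whose spans also hold counting error, so the medians are only loosely comparable.

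**Figure D4:**
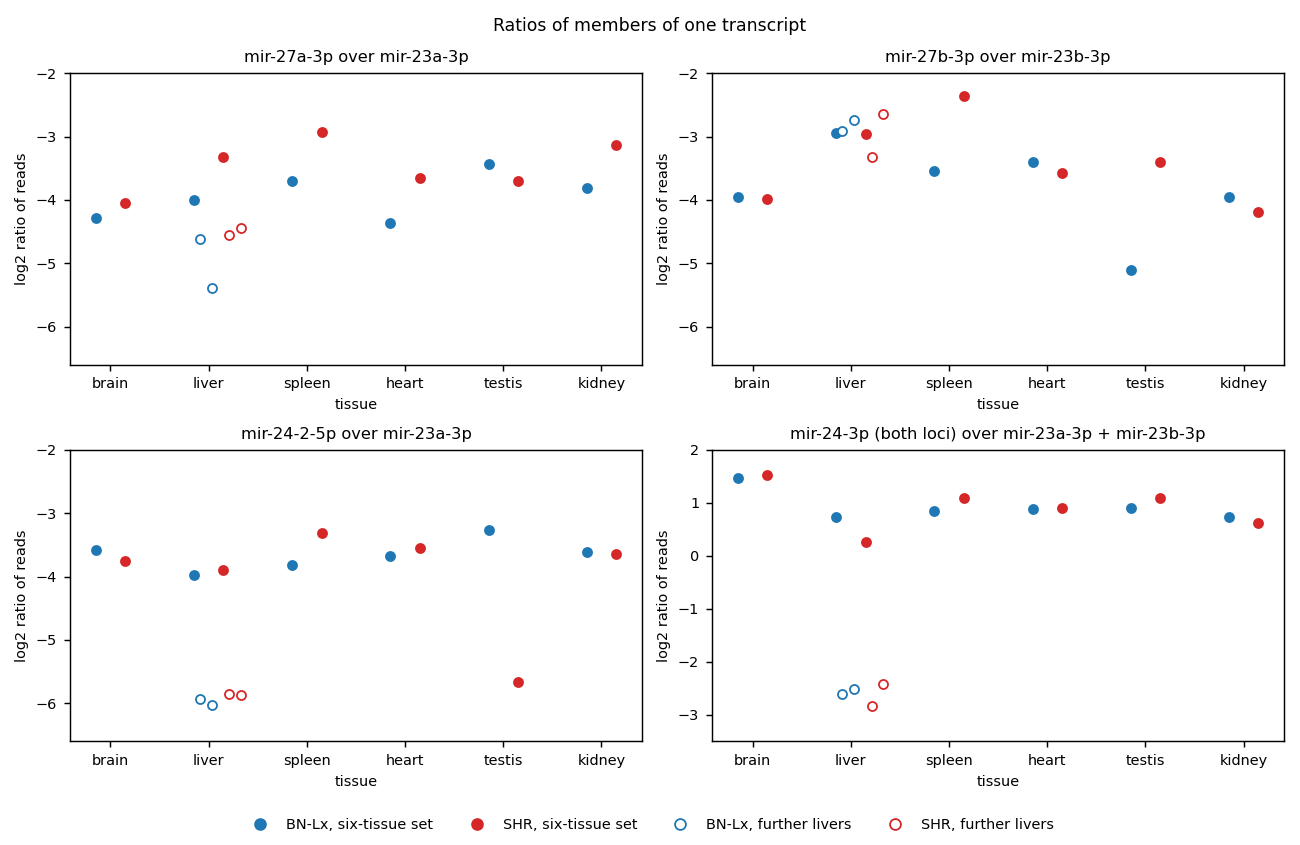
Log2 ratio of reads (y axis) between members of one transcript in each tissue, with points for libraries, filled for the six-tissue set and open for the further livers. For mir-24-3p over the mir-23 arms both clusters are summed. The ratios of mir-24-2-5p to mir-23a-3p and of mir-24-3p to the mir-23 arms lie far lower in the further livers (-6.02 to -5.85 and -2.83 to -2.41) than in the first livers, while mir-27b-3p over mir-23b-3p overlaps.

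Each hairpin with arms counted apart had most reads on the 3' arm. For mir-27b the 5' arm made up 2.85% and 2.32% of the reads in brain, 1.80% and 2.06% in kidney, 1.24% and 1.36% in heart, 2.21% and 0.930% in spleen and 0.912% and 0.475% in the first livers. For mir-24 the 5' arms made up 2.80% and 3.27% in spleen, 2.55% and 2.73% in heart, 2.11% and 2.07% in kidney, 1.87% and 2.63% in liver and 1.08% and 1.06% in brain. In the further livers the mir-24 share was 4.15% to 5.34%. Brain had the lowest mir-24 share of the tissues other than testis and the highest mir-27b share. Neither ratio differed between tissues past the threshold (exact permutation p = 0.0667 and adjusted p = 0.210 for mir-27b, p = 0.240 and adjusted p = 0.424 for mir-24), and of all 104 hairpins tested 0% passed. The mir-27b test included testis, where the 5' arm had no read and the ratio rested on the 0.5 read added. The 5' arms of mir-23a, mir-23b and mir-27a were too scarce to be tested.

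The 3' ends of reads differed between paralogues with the same seed. Between 97.5% and 99.1% of mir-23a-3p reads and between 94.4% and 97.8% of mir-23b-3p reads began at the first base of the mature arm. Their last base, counted from that first base, was most often 21 or 22 for mir-23a-3p (medians of 40.3% and 31.7% over the 10 six-tissue libraries without testis). For mir-23b-3p it was most often 21 or 23 (31.4% and 26.3%), with 16.2% at base 22. In the further livers base 22 (21.0% to 26.2%) and base 23 (16.7% to 21.7%) had the other order. The share ending at base 22 was higher for mir-23a-3p in 10 of 10 libraries and 4 of 4 further livers. The share ending at base 23 was higher for mir-23b-3p in the same libraries, at 24.4% to 30.2% against 9.87% to 19.8% in the six-tissue set.

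Reads of mir-27 ended earlier, at a median mean position of 19.7 for mir-27a-3p and 19.9 for mir-27b-3p over the 12 libraries, against 21.3 for mir-23a-3p and 21.4 for mir-23b-3p. Of mir-27a-3p, 39.7% to 49.6% ended at base 20, against 4.27% to 26.7% of mir-27b-3p, and mir-27a-3p was higher in 10 of 10 libraries. The ends of mir-27b-3p also moved between libraries. In SHR heart 34.5% of its reads ended at base 18 and 18.45% at base 21, while in BN-Lx heart 12.9% ended at base 18 and 45.1% at base 21. Reads that end at base 18 are among those divided evenly between mir-27a and mir-27b.

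**Figure D5:**
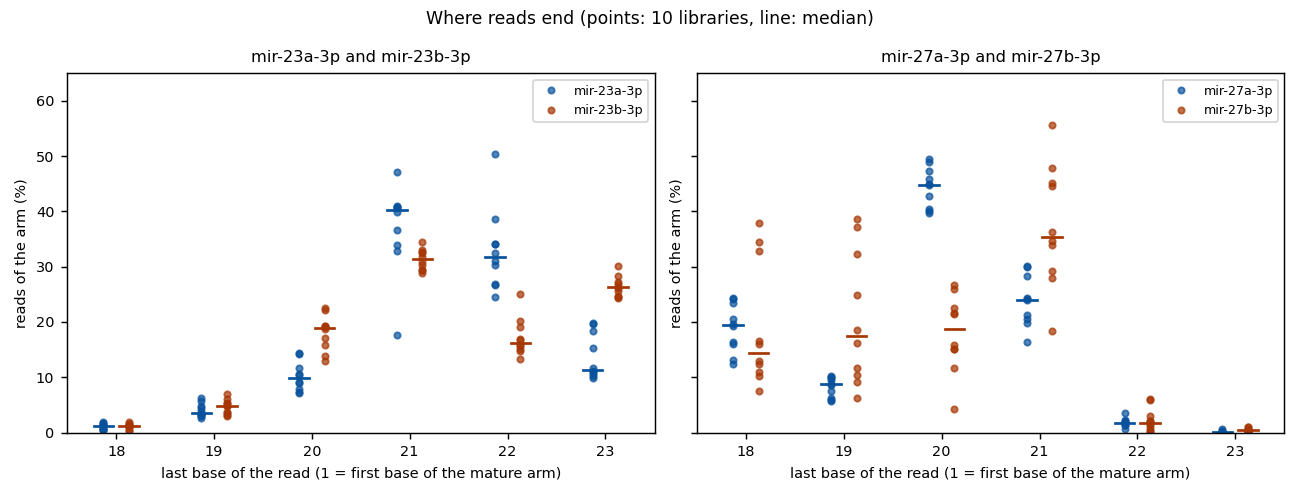
Share of an arm's reads (y axis, %) by their last base, counted from the first base of the mature arm (x axis), for the a member in blue and the b member in brown, with 1 point for each of 10 six-tissue libraries (testis is left out for its few reads) and a line for the median. At base 22 mir-23a-3p lies above mir-23b-3p in all 10 libraries and at base 23 below it, and mir-27a-3p ends at base 20 more often than mir-27b-3p.

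Whether the strains differ was asked in liver, where each had 3 rats. The level of mir-27a-3p was 0.731 ± 0.142 (BN-Lx) and 1.09 ± 0.210 (SHR) times the ocm (SD, n = 3), and that of mir-23b-3p 19.3 ± 4.16 and 22.9 ± 6.72. The level of mir-23a-3p was 18.9 ± 5.20 in BN-Lx and 19.1 ± 5.05 in SHR and that of mir-27b-3p 2.67 ± 0.744 and 2.96 ± 1.16. For mir-24-3p the values were 20.7 ± 23.04 and 16.6 ± 15.0, with both first livers far above the others. In edgeR none of the 8 member arms tested passed (the adjusted p was 0.986 for each), and 0% of all 269 arms did. At an unadjusted p under 0.05 there were 0 member arms and 7 arms in all with edgeR, and DESeq2 called 0 arms, with 0 member arms and 9 arms in all at that level. In the 4 further livers alone edgeR called 0 of 302 arms, and 37 arms had an unadjusted p under 0.05, of which 1 was a member, mir-23b-3p (log2 difference 0.45, adjusted p = 0.348). With all 6 livers the largest difference was that of mir-27a-3p, at a log2 difference (SHR minus BN-Lx) of 0.53 ± 0.39.

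The ratios were compared between the 3 livers of each strain by an exact two-sided permutation test, which cannot go below p = 0.1. Of 10 ratios, 1 did not overlap between the strains, against 8.49% of the 318 ratios compared in the same way over all arms. It was that of mir-23a-3p to mir-23b-3p, with a mean log2 ratio of -0.05 ± 0.11 in BN-Lx and -0.25 ± 0.06 in SHR (SD, n = 3, exact permutation p = 0.1). The 4 further livers are part of this comparison, so their own lack of overlap adds no separate support. In the six-tissue set the SHR library had the lower mir-23a-3p share in liver, spleen, heart and kidney and the higher in brain and testis. The difference for mir-24-3p over the mir-23 arms was -0.21 (exact permutation p = 0.7), and for mir-27a-3p over mir-27b-3p 0.47 (exact permutation p = 0.5), with overlapping strains. Taken by replicate number, the difference (SHR minus BN-Lx) had 1 sign in all 3 pairs of livers for mir-23a-3p over mir-23b-3p (-0.09, -0.20 and -0.34), for mir-27a-3p over mir-27b-3p (0.62, 0.27 and 0.51) and for mir-27a-3p over mir-23a-3p (0.69, 0.06 and 0.95). So it did for mir-24-2-5p over mir-23a-3p (0.08, 0.08 and 0.15) and for mir-27b-5p over mir-27b-3p (-0.88, -0.75 and -0.19). The exact permutation test of signs within the pairs gave p = 0.25 for each, the smallest that 3 pairs allow. For mir-23a-3p over mir-23b-3p the shared sign follows from the lack of overlap between the strains.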

How the data were processed

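The authors deposited, for 16 libraries, estimated counts of reads by hairpin, start and end. They sequenced on SOLiD, trimmed the linker, remapped the reads with SHRiMP to hairpins found on RGSC3.4 and in miRBase, kept perfect matches and gave hairpins that shared a read equal parts of it. No normalization was applied. The libraries of testis and the SHR liver of the six-tissue set had more PCR cycles than the other libraries of the set. PCR copies of a molecule are not independent, so intervals cover counting error only. The further livers' files hold reads down to 15 nt, while those of the six-tissue set start at 17 nt, and reads under 17 nt were 0.171% to 0.329% of the members' reads in the further livers.

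A hairpin's reads were split into arms at a distance of 18 nt between midpoints (637 of 15196294 reads lay on no assigned arm). Levels follow the study's outlier-corrected mean. Counts were rounded to whole numbers and fitted with edgeR 4.0.16 (R 4.3.3): quasi-likelihood test, TMM, filterByExpr, strain and tissue as terms in the 12 six-tissue libraries, strain alone in the 6 livers, Benjamini-Hochberg over all arms at 0.05, two-sided. SE is the log2 difference over the square root of the F statistic. DESeq2 1.42.0 was an alternative. Ratios are log2 of reads plus 0.5. For a pair with at least 5 reads in every library and 50 of each arm over the 12, tissue labels were permuted exactly within a strain, with the sum of squares between tissues as the statistic and Benjamini-Hochberg over all such pairs (paralogous arms, hairpins of a strand within 10 kb, or both arms of a hairpin). Pairs that fell short in testis alone were tested over the 10 other libraries. The fits and the permutation test were tested on simulated data. Python 3.11.15, numpy 2.4.6, pandas 2.3.3 and matplotlib 3.10.9 were used.

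The named arms are all those of the 6 hairpins, the markers, and the 5 arms of other hairpins with the highest correlation with mir-23a-3p and the 5 with mir-23b-3p. The members and lists were chosen with earlier results of these data known. Alternatives are given in the closing section. Whether the numbers of the livers pair them is not settled. After removal of the strain means, livers of the same number correlated across arms at 0.665, 0.571 and 0.298. Livers of different numbers correlated at -0.572 to 0.201, the highest between BN-Lx liver 3 and SHR liver 2. Both livers numbered 1 belong to the six-tissue set, and removal of the means makes these values depend on each other. The labels do not say that livers of the same number share an animal or day. Beyond the labels nothing says how the livers of a strain are related, and p-values measure the spread between these samples. The list of piRNA clusters was not used here.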

Additional observations from a re-analysis of the deposited data

Results flagged for a closer look

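A few reads came from outside the member arms. From the strand opposite rno-mir-24-1 4 reads were found in BN-Lx spleen and 4 in SHR spleen, above the limit of 3 reads that a count of 0 allows, and 14 in all 16 libraries. On neither arm of rno-mir-27a lay 26 reads and on neither arm of rno-mir-24-2 lay 7, over the 16 libraries. These counts are too low for a comparison between tissues.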

How the results depend on the processing

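The heart and testis results held best. Of 146 counts of called member arms recomputed for the tissue levels, 124 stayed within 1.5 times the value reported. The number of arms called in brain (6) was 3 with RLE factors and 2 with total reads, in kidney (4) 1 with RLE factors, 2 without a filter and 1 without the testis libraries, in spleen (3) 1 with total reads, and in liver (1) 2 with DESeq2. With the further livers of replicate 2 or of replicate 3 in place of the first, an alternative chosen after seeing the data, liver had 5 and 5 and kidney 2 and 2. Leaving out each library in turn gave 6 to 7 by the F test, 3 to 6 in brain (3 without either brain library), 0 to 1 in liver (0 without BN-Lx liver, BN-Lx spleen, SHR liver or SHR heart), 0 to 4 in spleen (0 without BN-Lx spleen, 1 without SHR spleen), 5 to 7 in heart, 6 to 6 in testis and 1 to 5 in kidney (2 without BN-Lx brain, 1 without BN-Lx kidney or SHR kidney). A tissue left with 1 library was taken to vary like the others. The log2 difference of mir-27b-3p in heart was 1.53 without BN-Lx heart. With tissue labels permuted without regard to strain (100000 draws), 1 ratio of the a and b clusters was called in place of 0, that of mir-23. No other alternative changed the count of ratios called. Without BN-Lx kidney the log2 difference of mir-24-1-5p over mir-23b-3p ran to -0.21 (range -0.21 to 1.16 over the libraries left out), and without SHR testis that of mir-24-2-5p over mir-23a-3p to -0.31 (-0.31 to 2.10). The cause of these changes was not tested, apart from the fewer samples where a library was left out.

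In the livers no alternative called a member arm. Signs that turned were of differences that did not pass: that of mir-24-2-5p was 0.11 with DESeq2, 0.11 with RLE factors, 0.28 without a filter and 0.30 in the 4 further livers alone, where mir-24-3p was 0.26. With the replicate number as a block, which treats livers of the same number as pairs, mir-24-2-5p stood at 0.092 and mir-23a-3p at -0.013. With that block 0 arms were called, and 22 arms in place of 7 had an unadjusted p under 0.05. The block changed no call. Leaving out each liver gave -0.12 to 0.39 for mir-23a-3p, -0.25 to 0.63 for mir-24-2-5p, -0.23 to 0.55 for mir-27b-3p and -1.18 to 1.06 for mir-24-3p.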

Other observations

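The arms of other hairpins whose level was most like that of mir-23a-3p over the 12 six-tissue libraries, by Pearson's r of log2 (reads over ocm plus 0.01) among 163 arms with a mean of 100 reads or more, were mir-126-3p (r = 0.886), mir-126-5p (0.861), mir-28-5p (0.837), mir-378-3p (0.786) and mir-143-3p (0.726). For mir-23b-3p they were mir-22-3p (0.837), mir-30d-5p (0.794), mir-30c-2-5p (0.791), mir-30c-1-5p (0.791) and mir-26a-5p (0.753). The lists share no arm. Among the members, r was 0.913 between mir-23a-3p and mir-27a-3p, 0.703 between mir-23b-3p and mir-27b-3p, 0.629 between mir-23a-3p and mir-23b-3p and 0.652 between mir-27a-3p and mir-27b-3p. The points share libraries and the scaling, and strains of 1 tissue are not independent, so these values describe the patterns.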
